A study of Mus musculus with 4 samples.

Results

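The genes examined here are 41 named mouse genes of glycolysis and of the response to low oxygen, which were picked by symbol, and all 41 are among the 22907 gene symbols that could be assigned to the array and among the 13212 that were tested. They comprise glucose transporters, the enzymes from hexokinase to pyruvate kinase, the enzymes that set the level of fructose 2,6-bisphosphate, lactate dehydrogenases and monocarboxylate transporters, pyruvate dehydrogenase kinases, carbonic anhydrases, the subunits and oxygen sensors of hypoxia-inducible factor (HIF), and 6 other hypoxia-inducible genes. The arrays compared ID8G cells, which are mouse ovarian cancer cells of the ID8 line that carry GFP on a retrovirus, with GO2 cells, which are GFP-positive, CD45-negative cells sorted from omental tumors after ID8G cells had been passed 2 times through the peritoneal cavity of syngeneic mice. Each cell line was hybridized to 2 arrays (4 in all, with 1 color per array). The study's methods give a medium with fetal bovine serum, insulin, transferrin and sodium selenite for ID8 cells and name none for GO2 cells. The oxygen level and the cell density at harvest are not given in the sources used here. GO2 is 1 selected population, and the labels do not say that the 2 arrays of a cell line came from separate cultures, so that p-values measure only the spread between these arrays, which may be technical.

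Cells in normal oxygen keep HIF low. The prolyl hydroxylases encoded by the Egln genes use oxygen to mark the HIF alpha subunits, and the von Hippel-Lindau protein (Vhl) then targets them for degradation. When oxygen falls, an alpha subunit (Hif1a or Epas1) pairs with Arnt and binds a short core sequence near its target genes. Among these targets are most glycolytic enzymes, glucose transporters, pyruvate dehydrogenase kinases, Egln3 itself and a set of stress genes, and many of the glycolytic genes are also driven by Myc and by growth factor signals.

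Most of these genes had lower mRNA levels in GO2 cells. At a Benjamini-Hochberg adjusted p below 0.05 over all probes (limma), 28 of the 41 genes were lower in GO2 cells (68.3%, where 20.0% of all genes tested were called lower), 7 were higher (17.1%, against 21.0% of all genes) and 6 were not called. At least 2-fold lower were 11 genes (26.8%, against 3.94% of all genes), namely Adm, Ankrd37, Epas1, Egln3, Ddit4, Pfkp, Hk2, Ndrg1, Aldoc, Car12 and Pdk1. At least 2-fold higher were 2 genes, Eno2 and Slc16a3 (4.88%, against 5.98%). Among all genes above background on all 4 arrays, as 40 of the 41 were, 2.91% were at least 2-fold lower and 3.65% at least 2-fold higher. The median difference was -0.36 on the log2 scale, with quartiles of -1.07 and -0.05, whereas the median over all genes tested was 0.00 with quartiles of -0.20 and 0.21. A total of 33 genes lay below 0 and 8 above it, and 50.1% of all genes lay below 0.

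The 2 arrays of a cell line lay close together, with standard errors of the difference between 0.05 and 0.15 (median 0.06, log2 scale), and for 38 of the 41 genes the ID8G and GO2 arrays did not overlap (78.5% of all genes). The exceptions were Hk1, Slc16a1 and Pdk2. With 2 arrays against 2, an exact permutation test of a single gene cannot give a two-sided p below 0.333, so that every call rests on the spread that limma shares among all probes. Leaving out 1 array lowered the count of genes called lower from 28 to 18 without ID8G replicate 1 or without GO2 replicate 2, and the count called higher from 7 to 4 without GO2 replicate 2, whereas the counts of 11 and 2 at the 2-fold threshold were unchanged when any single array was left out. Of the 35 genes called, 21 were called with any single array left out. The other 14, with differences of at most 0.56 in size, lost the call at least once, namely Slc2a3, Gpi1, Aldoa, Gapdh, Pgk1, Pgam1, Eno1, Pkm, Ldha, Pfkfb4, Pdk3, Pdk4, Arnt and Vhl. Scaling to the array's spike-in RNAs instead of the 75th percentile moved the median of all probes from -0.02 to -0.23, and with this scaling 29 genes were called lower and 4 higher. Without a filter on dim probes 16 genes were called lower and 4 higher. The Welch t-test, which the study's methods give for comparing 2 groups but not for the arrays, called 0 genes after Benjamini-Hochberg adjustment. By this test 28 genes had an unadjusted p below 0.05.

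**Figure D1:**
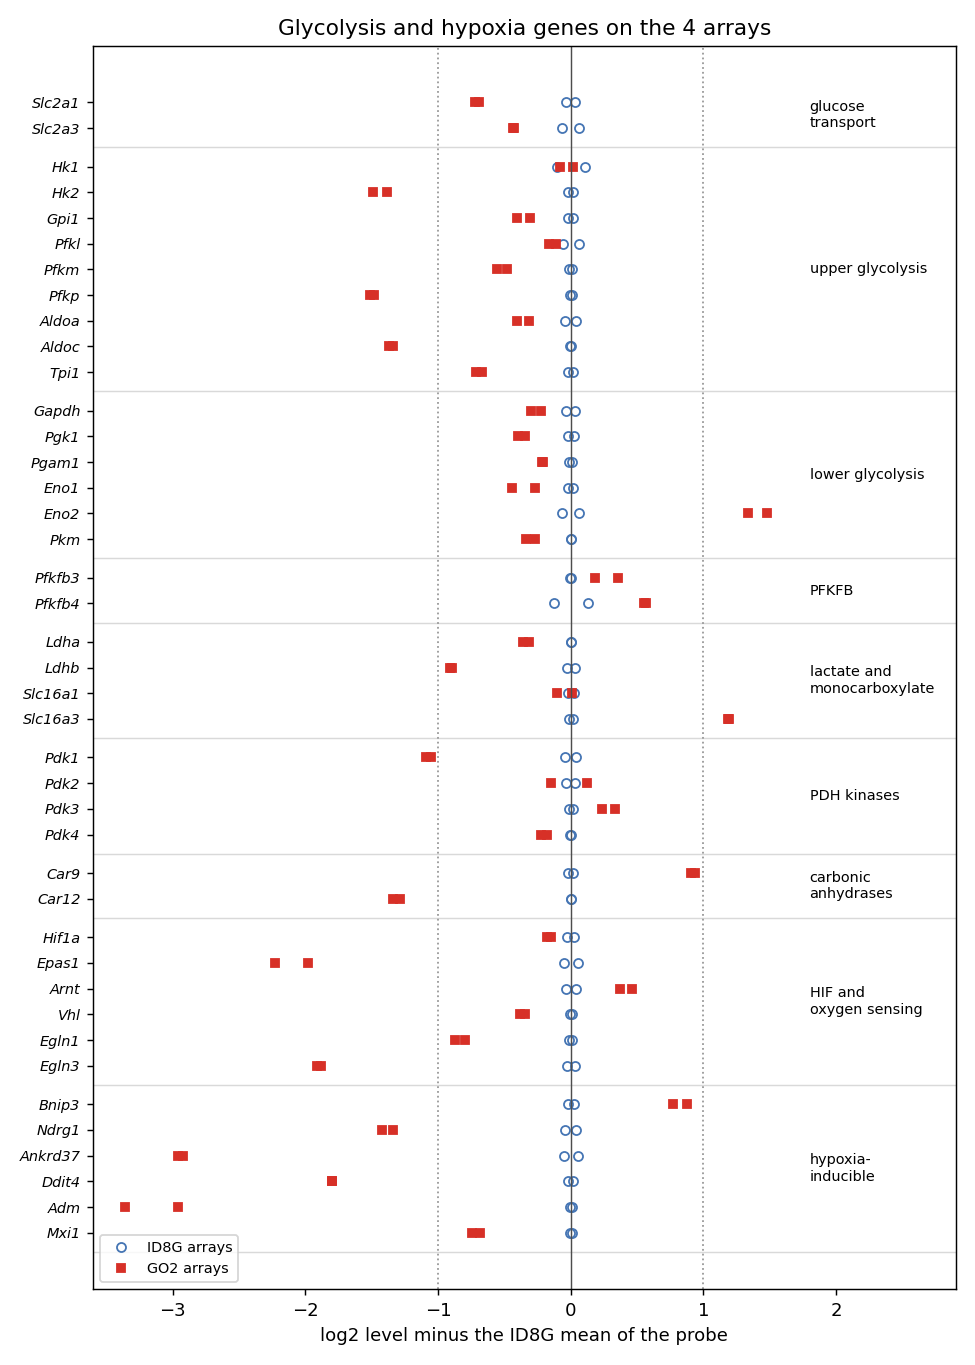
Log2 level of each of the 41 genes on each array, after subtraction of the ID8G mean of the same probe, with genes grouped by role on the vertical axis. Open circles are the 2 ID8G arrays and filled squares the 2 GO2 arrays, and dotted lines mark a 2-fold difference in either direction. The GO2 arrays lie left of the ID8G arrays for most genes, beyond the 2-fold line for 11 of them, and right of the other line for Eno2 and Slc16a3. Adm was not well above background on the GO2 arrays, so that its squares mark measured values and not a level.

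**Figure D2:**
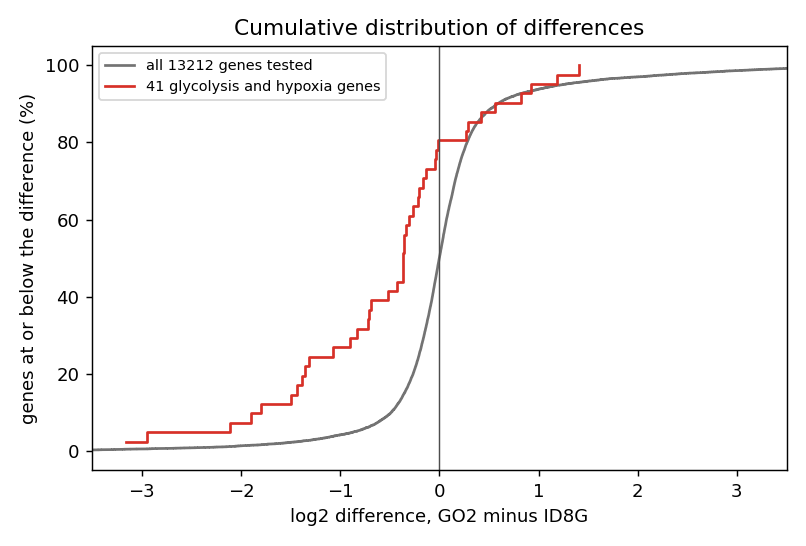
Cumulative share of genes, in percent, at or below each log2 difference between GO2 and ID8G cells. The gray line holds all 13212 genes tested and the red line the 41 glycolysis and hypoxia genes. The red line runs above the gray line over the whole range below 0, with a median of -0.36 against 0.00, and the lines meet above 0.

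Levels below are log2 intensities relative to the 75th percentile of the array, where 0 is the 75th percentile, and differences are GO2 minus ID8G on the log2 scale with the standard error (SE) from limma. A level describes 1 probe and is not compared between genes. Because bulk RNA was measured, fewer cells with an mRNA and less of it per cell cannot be told apart.

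Of the 6 genes for HIF subunits and oxygen sensors, 4 were lower in GO2 cells, 1 was higher and 1 was not called (of all genes, 20.0% were lower and 21.0% higher). Epas1, which encodes the HIF2α subunit, had levels of 1.17 and 1.06 on the ID8G arrays and of -1.12 and -0.87 on the GO2 arrays. Its difference was -2.11 ± 0.11, or 4.30-fold lower (adjusted p = 0.000859, limma). The gene for the other alpha subunit, Hif1a, had levels of 4.41 and 4.47 in ID8G cells and of 4.29 and 4.26 in GO2 cells. The Hif1a arrays did not overlap, but the difference of -0.16 (95% interval -0.31 to -0.02) was not called (adjusted p = 0.0808, limma), and it was called under the spike-in scaling (-0.37, adjusted p = 0.0301) and with an intensity trend in the variance (adjusted p = 0.0137). The Hif1a and Epas1 values describe mRNA, and HIF alpha subunits are controlled mainly through the stability of the protein, which was not measured on these arrays.

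Among the genes that sense oxygen or act on the hydroxylated subunits, Egln1, Egln3 and Vhl were lower. Egln3, a prolyl hydroxylase that is itself induced by HIF, fell from 2.64 and 2.58 on the ID8G arrays to 0.70 and 0.72 on the GO2 arrays, a difference of -1.90 ± 0.05 (3.72-fold lower, adjusted p = 0.000301, limma). Egln1, the main oxygen sensor in most cells, had levels of 4.30 and 4.32 in ID8G cells and of 3.44 and 3.52 in GO2 cells, and was 1.78-fold lower (-0.83 ± 0.06). Vhl was 1.29-fold lower (-0.36 ± 0.05). Arnt, the common partner of the alpha subunits, was 1.33-fold higher by its brighter probe (0.42 ± 0.06), but its dimmer probe gave 0.03 ± 0.05 and was not called (adjusted p = 0.647, limma), and the brighter probe was not called under the spike-in scaling (0.21, adjusted p = 0.177).

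The 6 other hypoxia-inducible genes held the widest differences. Ankrd37, a small ankyrin repeat protein known mainly as a HIF target, had levels of 2.39 and 2.29 in ID8G cells and of -0.62 and -0.59 in GO2 cells. It was 7.69-fold lower (-2.94 ± 0.06, adjusted p = 0.000213, limma), which was the smallest adjusted p among the 41 genes. Adm, which encodes the vasodilator peptide adrenomedullin, was at -1.54 and -1.53 in ID8G cells and not well above background on either GO2 array, which makes it at least 4.84-fold lower in GO2 cells. For this bound the GO2 level was set, on each array, to the lowest signal among probes well above background. In the other values given as at least some fold, the dim cell line was treated likewise, and a level already above that signal was kept. These values are therefore not strict lower bounds. With normexp background correction, which compresses dim signals, the Adm difference was -1.39, smaller than its bound.

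Ddit4 encodes a stress protein that restrains mTOR signaling. Its levels were 6.46 and 6.49 in ID8G cells and 4.67 on each GO2 array, a 3.48-fold decrease (-1.80 ± 0.05, adjusted p = 0.000296, limma). Ndrg1, a stress-responsive gene that is also tied to differentiation, had levels of 3.25 and 3.33 in ID8G cells and of 1.87 and 1.95 in GO2 cells and was 2.60-fold lower (-1.38 ± 0.06). Mxi1, a repressor that opposes Myc, was 1.64-fold lower (-0.71 ± 0.05). Bnip3 went the other way. It encodes a mitochondrial protein that triggers mitophagy, and its levels were 1.93 and 1.98 in ID8G cells and 2.83 and 2.72 in GO2 cells, a 1.77-fold increase (0.82 ± 0.06, adjusted p = 0.00248, limma).

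The core sequence that HIF recognizes was searched for in RefSeq promoter windows (GRCm38.p6, from 250 bases before to 50 bases after an annotated transcript start), which were found for 38 of the 41 genes. Slc2a3, Epas1 and Ndrg1 had no entry. Stretches upstream of the start are shown for 4 genes that were lower and 3 that were higher in GO2 cells, because the same letters stand before genes that differed in opposite directions. They are written 5′ to 3′ on the strand of the gene, and capitals mark ACGTG or its reverse complement CACGT.
Ankrd37 (lower, chr8:45999851-45999886, minus strand): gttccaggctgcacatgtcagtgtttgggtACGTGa
Egln3 (lower, chr12:54204069-54204124, minus strand): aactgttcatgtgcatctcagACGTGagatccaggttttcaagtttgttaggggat
Ddit4 (lower, chr10:59951923-59951987, minus strand): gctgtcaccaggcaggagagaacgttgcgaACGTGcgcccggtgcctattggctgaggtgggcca
Hk2 (lower, chr6:82774472-82774536, minus strand): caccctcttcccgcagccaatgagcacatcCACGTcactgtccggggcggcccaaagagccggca
Slc16a3 (higher, chr11:120949023-120949066, plus strand): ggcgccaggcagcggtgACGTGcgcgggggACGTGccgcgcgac
Bnip3 (higher, chr7:138909579-138909643, minus strand): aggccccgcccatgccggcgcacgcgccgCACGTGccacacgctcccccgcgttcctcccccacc
Car9 (higher, chr4:43506978-43507025, plus strand): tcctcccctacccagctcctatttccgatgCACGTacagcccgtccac
The first base of the motif nearest to the start lay 6 bases upstream of the start for Ankrd37, 14 for Slc16a3, 18 for Car9, 52 for Hk2, 107 for Bnip3, 187 for Ddit4 and 229 for Egln3. In the Bnip3 stretch the motif and its reverse complement overlap in CACGTG, which is also the E-box that Myc and its partners bind.

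Searched on both strands, ACGTG was present in 24 of the 38 genes with a window (63.2%), against 2981 of 10546 genes tested on these arrays that have one (28.3%) and 21.8% of all genes with one. The other form of the core, GCGTG, was present in 23 of the 38 genes (60.5%) and in 53.8% of the genes tested. The genes were chosen as members of a pathway that HIF controls, so that this share describes the choice. By direction, ACGTG was found in 15 of the 25 lower genes with a window (60%), in 4 of the 7 higher genes (57.1%) and in 5 of the 6 genes that were not called (83.3%). Among genes at least 2-fold lower it was found in 5 of 9 (55.6%). GCGTG was found in 15 of the 25 lower genes (60%), in 4 of the 7 higher genes (57.1%) and in 4 of the 6 not called (66.7%). Among genes at least 2-fold lower GCGTG was found in 6 of 9 (66.7%). A link of either form to the direction was not tested. These matches are letters in a window and not measured binding sites.

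Glucose uptake begins with the facilitative transporters Slc2a1 and Slc2a3, and both were lower. Slc2a1 (GLUT1) had levels of 3.67 and 3.73 in ID8G cells and of 3.01 and 2.98 in GO2 cells, and was 1.63-fold lower (-0.71 ± 0.06, adjusted p = 0.00251, limma). Slc2a3 (GLUT3) was 1.35-fold lower (-0.43 ± 0.07) by the probe that was above background. Its other probe was not well above background on any array.

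Of the 15 glycolytic enzyme genes, 12 were lower in GO2 cells, 1 was higher and 2 were not called (of all genes, 20.0% were lower and 21.0% higher). Their median difference was -0.36. The enzymes from hexokinase to triosephosphate isomerase held the 3 that were at least 2-fold lower. Pfkp, the platelet form of phosphofructokinase, which catalyzes the committed step of glycolysis, had levels of 3.18 and 3.19 in ID8G cells and of 1.71 and 1.67 in GO2 cells. It was 2.82-fold lower (-1.50 ± 0.05, adjusted p = 0.000404, limma), and a second probe gave -1.49. The muscle form Pfkm was 1.43-fold lower (-0.52 ± 0.06), and the liver form Pfkl was not called (-0.14, 95% interval -0.32 to 0.05, adjusted p = 0.18, limma).

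Hexokinase traps glucose inside the cell as its phosphate, and here its isozymes differed in their values. Hk2, the inducible isozyme, had levels of 2.50 and 2.54 in ID8G cells and of 1.03 and 1.14 in GO2 cells, a 2.71-fold decrease (-1.44 ± 0.06, adjusted p = 0.000621, limma). Hk1, the constitutive isozyme, lay at 3.26 and 3.47 in ID8G cells and at 3.29 and 3.38 in GO2 cells. The Hk1 arrays overlapped and the difference was -0.03 (95% interval -0.29 to 0.23).

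Aldolase splits the 6-carbon sugar. Aldoc, its brain-type isozyme and a known HIF target, had levels of 4.16 on each ID8G array and of 2.82 and 2.79 on the GO2 arrays, a 2.56-fold decrease (-1.35 ± 0.05, adjusted p = 0.000458, limma), and a second probe gave -1.33. The main isozyme Aldoa was 1.29-fold lower (-0.36 ± 0.07). Tpi1, which interconverts the triose phosphates, had levels of 7.31 and 7.35 in ID8G cells and of 6.66 and 6.61 in GO2 cells and was 1.62-fold lower (-0.69 ± 0.05), with all 3 of its probes between -0.69 and -0.72. Gpi1, the glucose phosphate isomerase, was 1.28-fold lower (-0.36 ± 0.06).

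Of the 6 genes for enzymes of the lower part of the pathway, which yields ATP and NADH, 5 were lower (20.0% of all genes were lower). Their decreases ran from 0.21 to 0.37 on the log2 scale. Gapdh, which makes NADH and is often taken as a reference gene, had levels of 9.12 and 9.19 in ID8G cells and of 8.93 and 8.85 in GO2 cells, a difference of -0.26 ± 0.06 (adjusted p = 0.0371, limma). Its 6 probes gave -0.26 to -0.48, and all 6 were called lower. Pgk1 (phosphoglycerate kinase) was 1.29-fold lower (-0.37 ± 0.05), Eno1 (the ubiquitous enolase) 1.28-fold (-0.36 ± 0.08), Pkm (pyruvate kinase) 1.23-fold (-0.30 ± 0.05) and Pgam1 (phosphoglycerate mutase) 1.16-fold (-0.21 ± 0.05). Gpi1, Pgam1 and Pkm were not called with quantile normalization. Several of these genes have many near-identical processed pseudogene copies in the mouse genome, and signal shared with transcribed copies cannot be told apart on an array.

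The exception among the glycolytic enzymes was Eno2, the enolase isozyme of neurons. It was dim, at -2.66 and -2.53 on the ID8G arrays and at -1.26 and -1.11 on the GO2 arrays, but above background on all 4. Eno2 was 2.65-fold higher in GO2 cells (1.41 ± 0.08, adjusted p = 0.00128, limma). With normexp background correction, which treats dim probes differently, the difference fell to 0.93 and was still called, below the 2-fold threshold.

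Pfkfb3 and Pfkfb4 encode enzymes that make and remove fructose 2,6-bisphosphate, an activator of phosphofructokinase. Pfkfb4 lay at -0.47 and -0.72 on the ID8G arrays and at -0.05 and -0.03 on the GO2 arrays, a 1.47-fold increase (0.56 ± 0.10, adjusted p = 0.0207, limma), which was not called under the spike-in scaling (0.35, adjusted p = 0.0679). Pfkfb3 differed by 0.27 ± 0.08 without a call (adjusted p = 0.0605, limma). It was called when only probes above background on all 4 arrays were tested (adjusted p = 0.0459) and with an intensity trend in the variance (adjusted p = 0.0101).

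Pyruvate is reduced to lactate by lactate dehydrogenase and leaves the cell through monocarboxylate transporters. Ldha, whose subunit favors lactate formation, was 1.27-fold lower (-0.34 ± 0.05) by its brighter probe and 1.55-fold lower (-0.63 ± 0.05) by the other. Ldhb, whose subunit favors the reverse reaction, had levels of 5.87 and 5.81 in ID8G cells and of 4.93 and 4.95 in GO2 cells, and was 1.87-fold lower (-0.90 ± 0.05, adjusted p = 0.00128, limma). The exporter gene Slc16a3 (MCT4), a HIF target in many cells, was higher. Its levels were 2.08 and 2.05 on the ID8G arrays and 3.25 on each GO2 array, a 2.28-fold increase (1.19 ± 0.05, adjusted p = 0.000585, limma), and 0.98 under the spike-in scaling. Slc16a1 (MCT1) lay at 3.65 and 3.60 in ID8G cells and at 3.64 and 3.53 in GO2 cells, with overlapping arrays (-0.05, 95% interval -0.22 to 0.13).

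The 4 pyruvate dehydrogenase kinases, which phosphorylate pyruvate dehydrogenase and so hold pyruvate back from the mitochondrial cycle, did not share a direction. Pdk1, the isozyme most tied to HIF, had levels of 2.88 and 2.96 in ID8G cells and of 1.87 and 1.83 in GO2 cells, a 2.10-fold decrease (-1.07 ± 0.06, adjusted p = 0.000995, limma). Of its 3 other probes, 1 gave -1.05, 1 gave at least 2.79-fold lower with no GO2 array above background, and 1 gave -0.18 and was not called (adjusted p = 0.0799, limma). Pdk4 was 1.15-fold lower (-0.20 ± 0.05, adjusted p = 0.0466, limma) and Pdk3 1.22-fold higher (0.29 ± 0.06, adjusted p = 0.0299, limma). The difference of Pdk3 fell to 0.08 under the spike-in scaling and that of Pdk4 was -0.18 without a call with normexp. Pdk2 was not called, with a difference of -0.01 (95% interval -0.31 to 0.29).

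The carbonic anhydrases at the cell surface, which help to clear the acid of glycolysis, were in opposite directions. Car12 had levels of 1.08 and 1.09 on the ID8G arrays and of -0.26 and -0.20 on the GO2 arrays and was 2.49-fold lower (-1.31 ± 0.05, adjusted p = 0.000518, limma). Car9, which is widely used as a marker of hypoxia, was dim, at -2.85 and -2.81 in ID8G cells and at -1.90 and -1.92 in GO2 cells by the brighter of its probes, which was 1.89-fold higher (0.92 ± 0.05, adjusted p = 0.00109, limma). The other Car9 probe gave 0.19 (95% interval -0.02 to 0.39) and was not called, so that the Car9 increase rests on 1 probe. With normexp background correction that probe gave 0.57 and was still called.

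In all, 13 of the 41 genes had several tested probes, and for all 13 the probes had the same sign. For 10 of the 13 every probe fell on the same side of the threshold, and the exceptions were Pdk1, Car9 and Arnt. The probes of Pfkp, Aldoc, Tpi1 and Eno1 differed by 0.01 to 0.03, whereas those of Pdk1 spanned 1.29 and those of Car9 0.73 on the log2 scale.

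**Figure D3:**
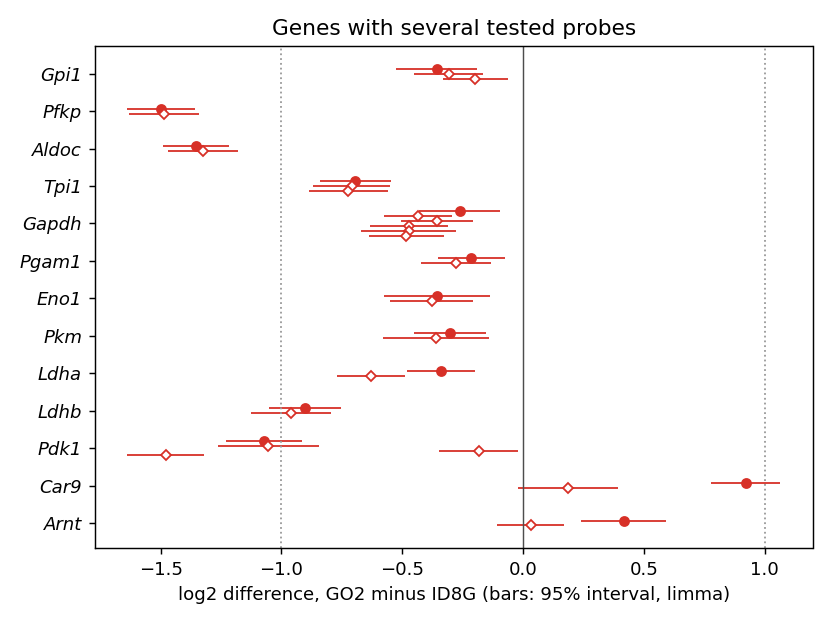
Log2 difference between GO2 and ID8G cells for each tested probe of the 13 genes that have several, with 95% intervals from limma as bars. Filled circles are the probe that represents the gene (the brightest), open diamonds the others, and dotted lines mark a 2-fold difference. All probes of a gene lie on the same side of 0, and the widest spreads are those of Pdk1 and Car9.

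Genes outside the 41 were examined in 7 further lists of connected pathways. Some genes called lower stand both in the list of hypoxia-inducible genes and in that of glycogen metabolism, and are counted in each. Of 34 tested hypoxia-inducible genes in the first list, 18 were lower, 6 were higher and 10 were not called, with a median difference of -0.24 (of all genes, 20.0% were lower and 21.0% higher). Among those at least 2-fold lower were Angptl4, a secreted inhibitor of lipoprotein lipase (-1.73 ± 0.10), Hilpda, a lipid droplet protein (-1.62 ± 0.06), Ero1a, an oxidase for disulfide formation (-1.46 ± 0.08), and Tfrc, the transferrin receptor (-1.16 ± 0.06). At least 2-fold higher were Lox, which crosslinks collagen (3.18 ± 0.06), P4ha2, a collagen prolyl hydroxylase (1.91 ± 0.05), Ak4, a mitochondrial adenylate kinase (1.75 ± 0.07), and Stc2, a secreted glycoprotein that was not above background in ID8G cells (at least 3.80-fold). The largest of the other differences were those of Bnip3l, a relative of Bnip3 (-0.85 ± 0.06), Bhlhe40, a transcriptional repressor (-0.85 ± 0.07), and the vasoconstrictor gene Edn1 (0.76 ± 0.09).

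Among 14 tested regulators of the HIF pathway, 2 were lower, 4 were higher and 8 were not called, with a median difference of 0.05. These and the counts of the lists below are to be read against 20.0% of all genes lower and 21.0% higher. The remaining prolyl hydroxylase, Egln2, differed by 0.17 ± 0.05 without a call (adjusted p = 0.0717, limma). Arnt2, a relative of Arnt, was higher (at least 1.09-fold by its bound, with no ID8G array above background). The next largest were Hif1an, the asparaginyl hydroxylase that inhibits HIF (0.49 ± 0.06), Siah2, a ubiquitin ligase for Egln proteins (0.37 ± 0.05), and the coactivator Ep300 (-0.36 ± 0.09).

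Of 12 further glycolytic isozymes and genes of gluconeogenesis that were tested, 5 were lower, 3 were higher and 4 were not called (median -0.19). Hkdc1, a hexokinase relative, was at least 4.28-fold lower, with no GO2 array above background. Pcx (pyruvate carboxylase) differed by -0.87 ± 0.06, Eno3 (the muscle enolase) by 0.68 ± 0.06 and Ldhd (the D-lactate dehydrogenase) by -0.63 ± 0.09. In the list of other glucose and monocarboxylate transport, 4 of 10 tested genes were lower and 1 was higher. Slc16a4 of the monocarboxylate transporter family differed by 0.95 ± 0.07 and the bicarbonate transporter Slc4a7 by -0.82 ± 0.05. Bsg (basigin), the chaperone of Slc16a1 and Slc16a3, differed by -0.45 ± 0.05.

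In the pentose phosphate pathway, which branches from glycolysis to make NADPH, 4 of 8 genes were lower, 1 was higher and 3 were not called (median -0.29). The entry enzyme of the cytosol, G6pdx, differed by -0.64 ± 0.06, its counterpart of the endoplasmic reticulum, H6pd, by 0.99 ± 0.06, and Taldo1 (transaldolase) by -0.42 ± 0.06. Among 10 genes for pyruvate entry into mitochondria, 1 was lower, 2 were higher and 7 were not called (median -0.06). Mpc1, a subunit of the mitochondrial pyruvate carrier, was 2.10-fold lower (-1.07 ± 0.06), whereas the other subunit, Mpc2, gave -0.07 ± 0.07 without a call, and the phosphatase Pdp1, which opposes the Pdk enzymes, differed by 0.76 ± 0.08. In glycogen metabolism 4 of 13 tested genes were lower and 4 were higher (median -0.05), with Stbd1, a glycogen-binding protein, 3.24-fold higher (1.70 ± 0.08), Ppp1r3c, a glycogen-targeting subunit of protein phosphatase, at least 1.68-fold higher with no ID8G array above background, and Phkb (phosphorylase kinase) at 0.84 ± 0.05.

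**Figure D4:**
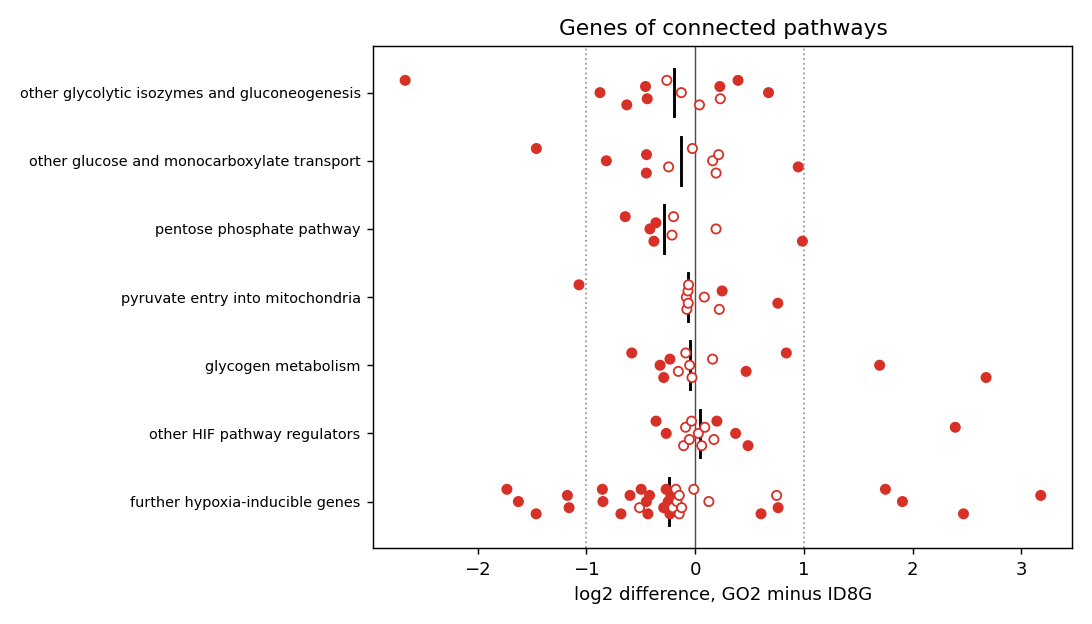
Log2 difference between GO2 and ID8G cells for each tested gene of the 7 connected lists, 1 point per gene in each list by its brightest probe. Filled points were called at an adjusted p below 0.05 (limma), open points were not, black bars are list medians, and dotted lines mark a 2-fold difference. The list of further hypoxia-inducible genes holds 5 genes beyond the lower and 4 beyond the higher 2-fold line, and the medians of the 7 lists lie between -0.29 and 0.05. Points of genes below background in 1 cell line show the measured difference and not the bound.

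Markers of cell types also differed between the cell lines. Of 6 epithelial markers 4 were tested and 3 were lower in GO2 cells, with a summed level (linear, relative to the 75th percentile) of 543 to 561 on the ID8G arrays and 284 to 285 on the GO2 arrays. Krt8 (-0.55 ± 0.05), Krt18 (-0.81 ± 0.05) and Krt19 (-1.65 ± 0.05) were the lower ones, Cdh1 was not called (-0.34 ± 0.10), and Epcam and Krt7 were not well above background in either cell line. Of 6 fibroblast markers 5 were tested, and Thy1 was not above background. Col1a2 (7.49 ± 0.15), Col1a1 (4.69 ± 0.05), Pdgfra (3.70 ± 0.08) and Pdgfrb were at least 2-fold higher, while Dcn was lower (-0.63 ± 0.05). For Pdgfrb, with no ID8G array above background, the increase was at least 2.42-fold. The summed level of the tested fibroblast markers was 67.4 to 70.1 in ID8G cells and 127 to 130 in GO2 cells. Such sums weight each gene by the brightness of its probe, and the fibroblast sum in ID8G cells comes mainly from Dcn, which moved against the other tested markers. Their part in the lower levels of the glycolysis and hypoxia genes was not tested.

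Macrophage markers had summed levels of 22.2 to 25.0 in ID8G cells and 21.6 to 21.7 in GO2 cells, with 4 of 7 tested. Cd14 was lower (-0.69 ± 0.05), Itgam (-0.13 ± 0.09), Csf1r (0.22 ± 0.09) and Cd68 (0.19 ± 0.09) were above background on all 4 arrays without a call, and Ptprc, Adgre1 and Lyz2 were not well above background in either cell line. Of the adipocyte markers, Fabp4 was above background on both ID8G arrays and at least 6.28-fold lower in GO2 cells, Lep was above background on all 4 arrays without a call (-0.04 ± 0.05), and Adipoq, Plin1, Cidec and Pck1 were not tested for lack of signal. Of the endothelial markers, Pecam1 was above background on all 4 arrays without a call (0.08 ± 0.08), and Cdh5, Kdr, Tek and Tie1 were not tested for the same reason. The mesothelial and ovarian surface markers Wt1, Msln, Upk1b, Upk3b, Lrrn4 and Bnc1 were all tested, with 1 lower, 2 higher and 3 not called.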

How the data were processed

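RNA of ID8G and GO2 cells was measured on 4 Agilent 1-color arrays (2 per cell line, all on 1 slide). The authors deposited the intensity of each spot as read by Feature Extraction 11.5.1.1, after its background correction but without any scaling of arrays to each other. The deposited value table holds log2 values on the scale of the 75th percentile with each probe's median subtracted, and was used for 1 alternative only. Its column medians were 0.10, -0.05, 0.04 and -0.05, and the number of per-sample columns not used was 0. Differences from it lay within 0.00310 of those given here for the probes of the 41 genes.

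For the level of a probe, the 75th percentile of log2 intensity of its array was subtracted, which corresponds to an intensity of 675 and 668 for ID8G and 635 and 627 for GO2 cells. Spots marked as outliers were left out and the spots of a probe were averaged. Tested were the 28368 of 56605 probes that the scanner software called well above background in ID8G cells (on both arrays), in GO2 cells (likewise) or in both, where 27502 to 28841 probes per array reached that level. The small number of arrays limits the precision. A model with the cell line and no other covariate was fitted in limma 3.58.1 (R 4.3.3) and was tested on simulated data. Figures were drawn with matplotlib 3.10.9 in python 3.11.15.

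Probes took their symbol through their RefSeq accession (GRCm38.p6 gene table, 58.3% of probes matched), and the arrays were designed on another build, so that no coordinate is given for a probe. A gene is represented by its tested probe with the highest mean level. Of 66 probes for the 41 genes, 62 were tested and 0 had a saturated spot. Calls of at least 2-fold used the thresholds of the study, 2-fold and 0.05. All other calls used an adjusted p below 0.05 with no threshold on the fold. All 41 genes are named, and from each connected list every gene called at least 2-fold and at most the 3 others with the largest difference, as well as Mpc2 and Egln2, which were named after their values were seen, and the cell type markers. Some genes of the connected lists are counted but not reported by name here. The 41 genes, the lists and the tests were chosen with earlier results of these data known.

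Alternatives tried were quantile normalization, normexp correction of the background (offset 50), centering on the median and spike-in scaling over 7 spike-ins. Further ones were other filters on dim probes, outlier spots kept, an intensity trend, the Welch t-test, limma treat and the replicate block. The deposited table, the mean over a gene's probes, and each array left out were also tried.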

Additional observations from a re-analysis of the deposited data

How the results depend on the processing

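Over 18 alternatives the differences of the 41 genes gave 737 values, of which 595 kept both direction and call, 132 lost the call, 4 became called and 6 turned their sign. The 6 belong to genes that were never called: Pdk2 gave 0.019 with normexp, and with each array left out Pdk2 ranged from -0.149 to 0.126, Hk1 from -0.137 to 0.0727 and Slc16a1 from -0.101 to 0.0087. After Benjamini-Hochberg adjustment, the Welch t-test called 0 genes in either direction at either threshold. By that test 28 of the 41 had an unadjusted p below 0.05, and limma called 35. Against a minimum difference of 2-fold (limma treat) 10 genes were called lower and 0 higher, where 12 had an unadjusted p below 0.05. Without a filter on dim probes 16 genes were called lower and 4 higher, and 33 rather than 37 had an unadjusted p below 0.05. The cause was not tested. At least 2-fold higher was 1 gene with normexp and 1 under the spike-in scaling, which called 4 higher. The median difference was -0.25 with quantile normalization and -0.57 under the spike-in scaling, and the cause of the former was not tested. Leaving out each array gave 18 to 20 genes lower, 4 to 6 higher, 11 and 2 at the 2-fold threshold, and medians of -0.40 to -0.34.

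Replicate numbers did not pair the samples (correlation of same-numbered deviations 0.03). With the replicate block, 24 genes were called lower and 6 higher, 11 and 2 at the 2-fold threshold, and Gapdh, Pgam1, Eno1, Pdk3 and Pdk4 were not called. Matching probes by a gene name column and using the slide as a block were intended but not run, because the scanner files hold no such column and there is 1 slide. Dim signal limits Adm, Eno2, Car9 and Pdk2 most.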
